A study of Mus musculus with 53 samples.

Results

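Pmch and Hcrt, 2 of the 53379 genes in the count tables, were followed across 49 RNA-seq libraries of laser-captured mouse hypothalamus. Pmch encodes the precursor of melanin-concentrating hormone (MCH) and Hcrt the precursor of the orexins (hypocretins). Both genes were selected on measured values of these libraries, because they stood out in some of them, and the question put to them was whether they rose together, as nearby lateral tissue in the capture would give. Their levels and their joint behaviour are therefore given as a description. Comparisons between groups were fitted across all genes, and the values of these 2 genes there are likewise read as a description.

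The mice were adult C57BL/6 animals that were wild type (Nnat+/+) or carried a null allele of neuronatin inherited from the father (Nnat+/-p). Nnat is imprinted and is read from the paternal copy, so Nnat+/-p mice lack its expression in every tissue and not only in the hypothalamus. The female PVN (paraventricular nucleus) gave 4 libraries of Nnat+/+ mice and 6 of Nnat+/-p mice (3 non-obese, 3 obese), all on chow. The male PVN gave 3 chow libraries of Nnat+/+ mice and 7 of Nnat+/-p mice (3 non-obese, 4 obese), and 6 Nnat+/+ and 3 Nnat+/-p libraries on a high-fat diet with 45% fat (HFD). The male ARC (arcuate nucleus) gave 2 chow libraries of Nnat+/+ mice and 8 of Nnat+/-p mice (4 non-obese, 4 obese), and 6 Nnat+/+ and 4 Nnat+/-p libraries on HFD. On chow, male Nnat+/-p mice were non-obese under 35 g and obese over 37 g, and females under 25 g and over 30 g. Each nucleus was cut from sections, so a library holds every cell type in the captured area. No label names the mouse, and libraries 39 and 40 of the ARC, and 1 and 2 of the female PVN, share a labelled weight within their pair, so p-values measure the spread between libraries.

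MCH and orexin neurons are separate cell populations that lie side by side in the lateral hypothalamus, lateral to the ARC and ventrolateral to the PVN. Neither population is a resident of the PVN or the ARC, although both send axons widely through the brain and their peptides are released there. MCH raises feeding and promotes rest, and mice without it are lean. The orexins sustain wakefulness, and loss of orexin neurons causes narcolepsy. Both peptides are cut from precursors by the convertases and finishing enzymes that act on other neuropeptides. MCH acts in the mouse through the receptor Mchr1, and the orexins through Hcrtr1 and Hcrtr2.

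Pmch (ENSMUSG00000035383) lies on the plus strand of chromosome 10 at chr10:88091072-88092375 (GRCm38), with 1 annotated transcript of 3 exons. Hcrt (ENSMUSG00000045471) lies on the minus strand of chromosome 11 at chr11:100761069-100762931, with 2 annotated transcripts. Each gene has 749 exonic bases when its annotated transcripts are merged. Neither transcript of Hcrt holds all of them, so CPM of the 2 genes compare only roughly. Of the exonic bases of Pmch, 435 are also exonic bases of Parpbp, a gene on the opposite strand. The library kit keeps the strand, but the strand setting of the counting is not given in the sources used here, so reads of Pmch and Parpbp in this stretch cannot be told apart. Parpbp had a median of 1.49 CPM in the male PVN and 0.673 CPM in the ARC, and its r with Pmch was 0.13 and -0.03.

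The sequences just upstream of the 2 starts are shown for comparison, since the question put to the pair was whether they moved together. They are the 250 bases before each annotated start in RefSeq (GRCm38.p6), 5′ to 3′ on the gene's own strand, at chr10:88090822-88091071 for Pmch and chr11:100762932-100763181 for Hcrt. Capitals mark the letters TATAAA, searched on both strands, which occur 1 time in each sequence on the gene's strand.
Pmch: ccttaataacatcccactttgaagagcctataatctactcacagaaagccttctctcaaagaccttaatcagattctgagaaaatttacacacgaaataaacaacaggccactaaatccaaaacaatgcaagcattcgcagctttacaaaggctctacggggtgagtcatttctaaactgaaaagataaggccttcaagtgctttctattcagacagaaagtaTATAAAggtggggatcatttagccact
Hcrt: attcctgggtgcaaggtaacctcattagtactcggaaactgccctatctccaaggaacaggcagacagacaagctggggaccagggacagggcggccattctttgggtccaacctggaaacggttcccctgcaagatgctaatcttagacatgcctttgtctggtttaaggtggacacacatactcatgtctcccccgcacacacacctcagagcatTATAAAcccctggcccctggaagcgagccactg
The motif began 27 bases before the start of Pmch and 33 bases before that of Hcrt. Of 32851 promoters of this length, 7.59% held it on the gene's strand and 12.4% on either strand. The sequences differed in base composition, with 38.4% G and C at Pmch and 53.6% at Hcrt. These matches are a description of the letters.

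Totals ran from 6219365 to 30228973 counts in the female PVN, from 2268021 to 8560199 in the male PVN and from 1479953 to 18058097 in the ARC. Nnat separated the genotypes in every table, at 231 to 531 CPM in Nnat+/+ and 0.268 to 17.2 CPM in Nnat+/-p libraries. Markers of the labelled nucleus were lowest in 3 libraries. The list of 6 PVN genes (Avp, Oxt, Crh, Trh, Sim1, Otp) summed to 35 CPM in male PVN library 15 (Nnat+/+ chow) and to 176 CPM in library 24 (Nnat+/+ HFD), against 633 to 2360 CPM in the other 17 male PVN libraries. The list of 6 ARC genes (Pomc, Agrp, Npy, Tac2, Ghrh, Tbx3) summed to 22.9 CPM in ARC library 43 (non-obese Nnat+/-p), where Agrp was at 0 and Pomc at 2.01 CPM, against 47.1 to 586 CPM in the other ARC libraries. Libraries 15 and 24 were also the highest of the male PVN in Pmch, and library 43 the highest of the ARC, so results that rest on them are given without them too.

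**Figure D1:**
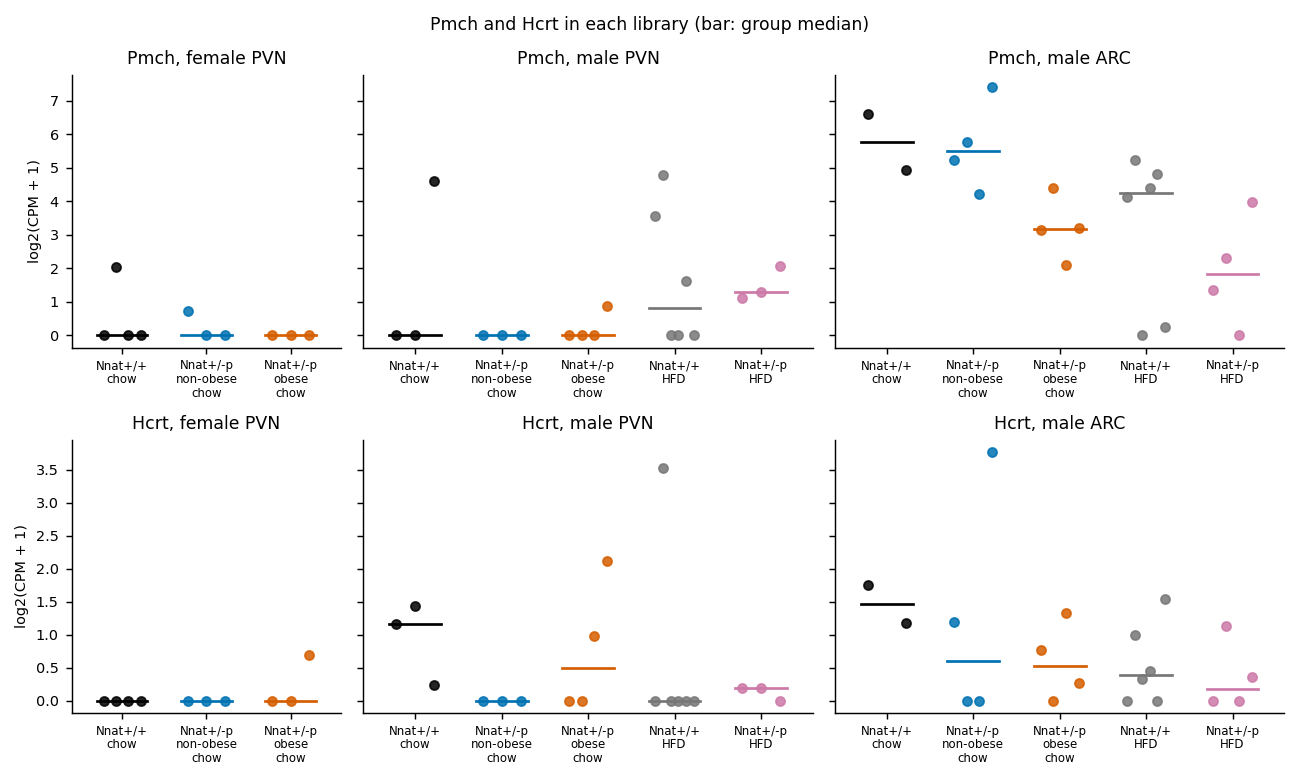
Level of Pmch (top) and Hcrt (bottom) in each library on the log2(CPM + 1) scale, by group, for the female PVN, male PVN and male ARC; each point is a library and each bar a group median. Pmch has a median of 17.2 CPM in the ARC and of 0 in both PVN tables, and Hcrt is low in all 3 tables apart from male PVN library 24 (10.5 CPM) and ARC library 43 (12.6 CPM).

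Pmch was detected in nearly every ARC library and in a minority of PVN libraries. In the ARC, 18 of 20 libraries had counts and the median was 17.2 CPM, from 0 to 170 CPM. Of the male PVN libraries, 8 of 19 had counts and the highest was 26.9 CPM. In the female PVN, 2 of 10 libraries had counts, with 17 counts (3.10 CPM) in Nnat+/+ library 2 and 23 counts (0.651 CPM) in non-obese Nnat+/-p library 9. Hcrt was detected in 13 of 20 ARC libraries, with a median of 0.323 CPM, in 8 of 19 male PVN libraries and in 1 of 10 female PVN libraries, with 14 counts (0.620 CPM) in obese library 12. A count of 0 allows a level of up to 0.0849 to 0.560 CPM in the female PVN, 0.356 to 1.21 CPM in the male PVN and 0.228 to 1.67 CPM in the ARC, depending on the library, taking 3 counts as the limit. Intervals and limits cover counting error only.

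In the ARC on chow, the 2 Nnat+/+ libraries held 95.9 and 29.5 CPM of Pmch. The 4 non-obese Nnat+/-p libraries held 36.7, 53.3, 17.8 and 170 CPM, the highest being library 43. The 4 obese Nnat+/-p libraries held 7.92, 20.0, 3.26 and 8.19 CPM. Obese libraries were thus low, and the groups touched at 1 point, where obese library 37 (20.0 CPM) stood above non-obese library 40 (17.8 CPM). On HFD, the 6 Nnat+/+ libraries ran from 0 to 36.7 CPM with a median of 18.2 CPM, and the 4 Nnat+/-p libraries held 1.57, 3.94, 0 and 15.0 CPM. ARC libraries without Pmch were thus all from HFD-fed mice: library 46 (Nnat+/+) and library 52 (Nnat+/-p) at 0, with library 49 (Nnat+/+) at 1 count.

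Pmch of the male PVN came from a few libraries. On chow, library 15 held 129 counts (23.4 CPM, 95% Poisson interval 19.5 to 27.8) while the other 2 Nnat+/+ libraries held none. The 3 non-obese Nnat+/-p libraries held none, and of the 4 obese libraries 1 held 3 counts. On HFD, the 6 Nnat+/+ libraries held 10.9, 26.9, 0, 0, 2.10 and 0 CPM, the second of these being library 24 with 144 counts, and the 3 Nnat+/-p libraries held 1.14, 1.43 and 3.21 CPM. All groups with more than 1 library above 0 were therefore HFD groups, and within the Nnat+/+ HFD group libraries at 0 and libraries with 17 to 144 counts stood side by side.

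Hcrt came from fewer counts, and library 15 and library 24, both rich in Pmch, differed in it. In the male PVN on chow, the 3 Nnat+/+ libraries held 1.24, 1.70 and 0.181 CPM, the lowest being library 15, which was the chow library with the most Pmch. The 3 non-obese Nnat+/-p libraries held none, and the 4 obese libraries held 0, 0, 0.972 and 3.32 CPM. On HFD, library 24 alone of the 6 Nnat+/+ libraries had counts, 56 in all (10.5 CPM, interval 7.89 to 13.6), and the 3 Nnat+/-p libraries held 1, 1 and 0 counts. In the ARC on chow, Hcrt was at 2.38 and 1.25 CPM in Nnat+/+, at 1.29, 0, 0 and 12.6 CPM in non-obese Nnat+/-p and at 0.708, 0, 1.52 and 0.200 CPM in obese Nnat+/-p libraries. On HFD in the ARC it ran from 0 to 1.91 CPM in the 6 Nnat+/+ libraries, with a median of 0.315 CPM, and from 0 to 1.18 CPM in the 4 Nnat+/-p libraries. Library 43 held 59.1% of all Hcrt counts of the ARC table and library 24 held 64.4% of those of the male PVN table.

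Ordered by group mean, Pmch was highest in the ARC of non-obese Nnat+/-p (69.5 ± 68.7 CPM, SD, n = 4) and of Nnat+/+ mice on chow (62.7 ± 46.9 CPM, n = 2). The ARC of Nnat+/+ mice on HFD (16.8 ± 14.7 CPM, n = 6) and of obese Nnat+/-p mice on chow (9.85 ± 7.15 CPM, n = 4) came next. The PVN of Nnat+/+ males on chow (7.80 ± 13.5 CPM, n = 3) and on HFD (6.64 ± 10.8 CPM, n = 6) and the ARC of Nnat+/-p mice on HFD (5.12 ± 6.76 CPM, n = 4) followed, above the PVN of Nnat+/-p males on HFD (1.93 ± 1.12 CPM, n = 3). The remaining groups were under 1 CPM on average. The ranges of neighbours in this order overlapped throughout, and the 3 tables were normalized separately.

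The 2 genes were compared across the libraries of each table on the log2 CPM scale. In the male PVN, Pearson's r was 0.30 and Spearman's rho 0.28 over 19 libraries. In the ARC, r was 0.30 and rho 0.23 over 20 libraries. In the female PVN, r was -0.16 and rho -0.17 over 10 libraries, where no library held both genes. Points within a table differ in depth and in marker content. Set against the genes that passed the count filter, Hcrt ranked 2945 against 17575 others by r with Pmch in the male PVN, and 2301 against 15751 in the ARC. Hcrt itself passed the filter in the ARC but not in the male PVN.

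The positive values rested on few libraries. In both male tables the library with the most Pmch was also the one with the most Hcrt, library 24 in the PVN and library 43 in the ARC. Without the 2 libraries farthest from the median of Pmch, r was -0.11 in the male PVN (libraries 24 and 15 left out) and 0.21 in the ARC (libraries 52 and 46 left out). Without library 43 alone, the ARC value was 0.08, and without library 24 alone the male PVN value was -0.10. As deviations from the group means, r was 0.34 in the male PVN and 0.07 in the ARC. Counted by library, both genes exceeded 3 counts in 7 ARC libraries, Pmch alone in 10, Hcrt alone in 1 and neither in 2. For the male PVN these numbers were 1, 6, 3 and 9, and in the female PVN 0, 2, 1 and 7. A library with Pmch therefore often had no Hcrt: library 15 had 129 counts of Pmch and 1 of Hcrt, and library 23 had 86 and 0.

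**Figure D2:**
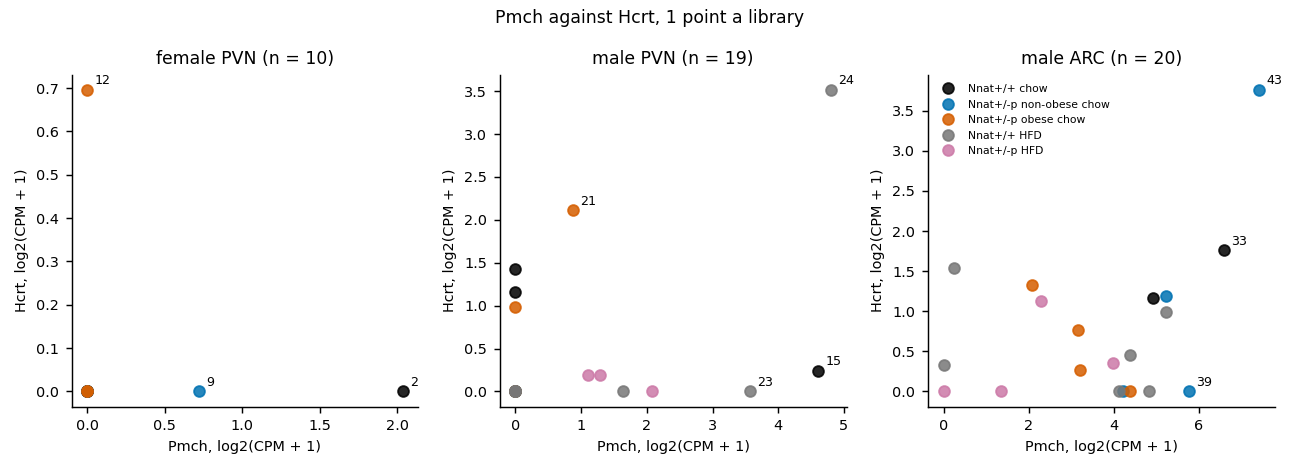
Pmch (horizontal) against Hcrt (vertical) on the log2(CPM + 1) scale in the female PVN, male PVN and male ARC, with 1 point a library, coloured by group, and the highest libraries numbered. Libraries 24 and 43 are high in both genes, while libraries 15 and 23 lie along the Pmch axis and library 21 (12 counts of Hcrt and 3 of Pmch) is high in Hcrt.

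In both male tables Pmch tended to be higher where markers of the dissected nucleus were lower. In the male PVN, r of Pmch with the summed PVN list was -0.74 over 19 libraries, -0.68 without library 24, -0.35 without libraries 15 and 24, and -0.87 as deviations from the group means. The individual values were -0.83 with Avp and -0.75 with Oxt, the hormones of the magnocellular neurons, and -0.63 with Sim1 and -0.67 with Otp, transcription factors of the PVN lineage. Library 23, the third in Pmch, had 665 CPM of the PVN list, the second lowest of those other 17 libraries. Library 19, with 633 CPM, had no count of Pmch. Spearman's rho was -0.49, with 11 libraries tied at a count of 0. In the female PVN, r of Pmch with the PVN list was 0.06 over 10 libraries. Only libraries 2 and 9 held Pmch there, and without library 2 the value was 0.62, set by library 9 alone. Library 9, second in Pmch, held the highest PVN list of its table (4370 CPM).

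The same was seen in the ARC. There r of Pmch with the summed ARC list was -0.81 over 20 libraries, -0.78 without library 43 and -0.65 as deviations from the group means, with a rho of -0.75. The values were -0.83 with Agrp and -0.75 with Npy, peptides of the neurons that promote feeding, and -0.73 with Pomc, the precursor of an anorexigenic peptide. Library 46, with the highest ARC list (586 CPM), was at 0 counts of Pmch. Hcrt was less closely related to the ARC list, at -0.51, and its r with the PVN list in the male PVN was -0.30.

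Genes of other nuclei also varied with Pmch. In the ARC, r of Pmch with the ventromedial list (Nr5a1, Fezf1, Adcyap1) was 0.46, and 0.65 without library 43, which held 15.4 CPM of that list against 4.70 to 202 CPM elsewhere. By gene, r was 0.39 for Nr5a1, 0.33 for Fezf1 and 0.53 for Adcyap1. The list of thalamus genes (Tcf7l2, Prkcd, Calb2) had a summed r with Pmch of 0.44 in the ARC, and 0.65 without library 43. By gene that was 0.42 for Calb2, against 0.09 for Tcf7l2 and -0.09 for Prkcd. The thalamus list had an r of 0.33 in the male PVN and -0.08 in the female PVN. In the male PVN Calb2 had 0.44, Tcf7l2 -0.09 and Prkcd -0.06. Library 15 of the male PVN held 255 CPM of the ventromedial list and 187 CPM of the ARC list, the highest of the table in both, with 110 CPM of Pomc. Library 24 instead held the highest dorsomedial list (Npvf, Ppp1r17), 59.7 CPM, and the highest list of other lateral hypothalamic and zona incerta genes (Qrfp, Nts, Gal, Lhx6), 112 CPM against a median of 14.5 CPM. ARC library 43 likewise held the highest dorsomedial list, 35.6 CPM, and the highest lateral list, 64.5 CPM, of its table. The libraries rich in both Pmch and Hcrt were thus the ones highest in the dorsomedial and lateral lists, and library 15, rich in Pmch alone, was highest in the ventromedial and ARC lists. In library 24 the dorsomedial and lateral sums were mostly Ppp1r17 (57.1 CPM) and Gal (90.7 CPM), with Nts at 18.7 CPM. Lhx6 and Qrfp were highest in male PVN libraries 31 and 13. In the ARC, Ppp1r17 (33 CPM) and Nts (18.3 CPM) were highest in library 43. Npvf was highest in ARC library 47, Gal in 50, Lhx6 in 41 and Qrfp in 46. Library 15 was also the highest of the male PVN in the list of MCH neuron genes (207 CPM) and in that of orexin neuron genes (158 CPM), although it held 1 count of Hcrt. Of these sums, Cnr1 gave 151 CPM and Nptx2 62.6 CPM. The other members were highest elsewhere. Cartpt and Pdyn were highest in library 24, Tacr3 in 13, Lhx9 in 14, Ebf2 in 17 and Igfbp3 in 16. Parpbp, the gene opposite Pmch, is also in the MCH neuron list and was highest in library 20. Across libraries the lateral list did not go with Pmch in the same way, with an r of 0.44 in the male PVN and -0.22 without libraries 15 and 24, of -0.27 in the ARC and -0.50 without library 43, and of -0.54 in the female PVN. The part of the captured area in these levels was not tested.

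**Figure D3:**
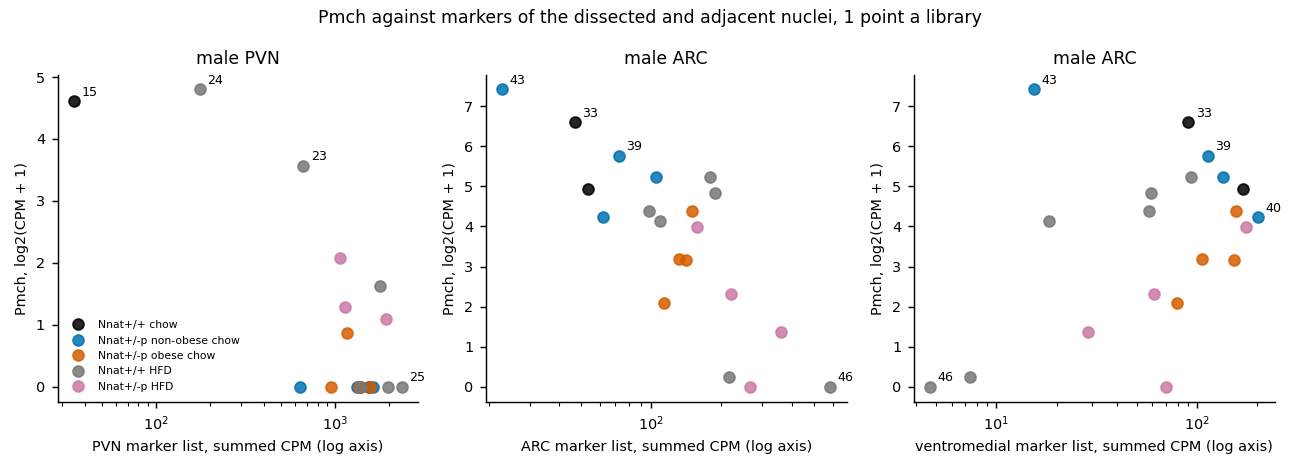
Pmch on the log2(CPM + 1) scale against the summed CPM, on a log axis, of the PVN list in the male PVN, the ARC list in the male ARC and the ventromedial list in the male ARC; each point is a library, coloured by group. Pmch is lower where the own-nucleus list is higher (r = -0.74 and -0.81), with libraries 15, 24 and 43 at the upper left.

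Genes known from MCH and orexin neurons varied less uniformly. Of the MCH neuron list, Cartpt, a peptide precursor that MCH neurons share with ARC and PVN neurons, had an r with Pmch of 0.48 in the male PVN and of -0.53 in the ARC. Tacr3, the neurokinin B receptor, had -0.20 and 0.42, and Cnr1, the cannabinoid receptor, 0.45 and 0.60. Of the orexin neuron list, r with Hcrt in the male PVN was 0.41 for Pdyn, the dynorphin precursor, 0.42 for Nptx2, a synaptic pentraxin, 0.28 for Lhx9, a transcription factor of orexin neurons, -0.20 for Ebf2, another transcription factor, and -0.05 for Igfbp3, a binding protein of insulin-like growth factors. In the ARC these were -0.14, -0.06, 0.39, -0.09 and 0.18. Pdyn and Nptx2 ran up to 96.3 and 62.6 CPM over the 2 male tables, where the highest level of Hcrt was 12.6 CPM.

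The receptors were low. Mchr1 had a median of 6.28 CPM in the male PVN and 2.64 CPM in the ARC, and its r with Pmch was -0.75 and -0.38. Hcrtr1 had medians of 1.39 and 1.07 CPM, and Hcrtr2 of 13.0 and 11.5 CPM, with r with Hcrt between -0.22 and 0.32. The processing enzymes were abundant throughout. Cpe, which trims cleaved peptides, had medians of 624 and 478 CPM, Pam, which amidates them, 397 and 359 CPM, and the convertases Pcsk1 and Pcsk2 between 41.0 and 155 CPM. The summed enzymes had an r with Pmch of 0.01 in the male PVN and 0.65 in the ARC, and within the ARC Pcsk2 and Cpe (both 0.62) went with Pmch and Pcsk1 (-0.51) against it. All of these levels are CPM, not divided by gene length.

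The genes most like Pmch across libraries, among those that passed the count filter, were Dpp10, Negr1, Grm5, Tenm3 and Tef in the male PVN (r from 0.91 to 0.86, n = 19) and Fam19a2, Robo1, Pcdh10 and Syt1 in the ARC (r from 0.87 to 0.80, n = 20). Those most like Hcrt were Gm4895, Mesp1, Fbxo40, Prox1 and Bsx in the male PVN (r from 0.83 to 0.77) and 4930556M19Rik, Tmem183a, Ercc5, Chsy1 and Trim47 in the ARC (r from 0.85 to 0.75). In the female PVN the nearest were Erf, Gm44210, Gm47664, Plin4 and 0610037L13Rik for Pmch (r from 0.94 to 0.88) and Map3k10, Tti2, Muc16, Mark4 and Actn1 for Hcrt (r from 0.79 to 0.71). These female values rest on the 2 libraries with Pmch and the 1 with Hcrt.

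In 15 male mice a PVN and an ARC library carried the same labelled genotype, diet and weight, and were taken as a hint that they came from the same animal. Pmch was higher in the ARC library in 13 of them, higher in the PVN library in 1 (Nnat+/-p on HFD, 38.2 g, 3.21 against 0 CPM) and at 0 in both in 1. The non-obese Nnat+/-p mouse of 27.4 g had 170 CPM in the ARC and 0 in the PVN, so the high Pmch of library 43 was not seen in the other nucleus. The Nnat+/+ HFD mouse of 41.4 g had 36.7 and 10.9 CPM, the highest value of the HFD-fed mice of this set in each nucleus. Hcrt exceeded 3 counts in both libraries of 2 mice, the Nnat+/+ chow mice of 31.4 and 33.5 g, in the ARC library only in 6, in the PVN library only in 1 and in neither in 6. Weights of 42.9 and 43.9 g on HFD also occurred in both nuclei, but with opposite labelled genotypes, and were not matched. At 42.9 g these were PVN library 24 (Nnat+/+) and ARC library 51 (Nnat+/-p). At 43.9 g they were PVN library 30 (Nnat+/-p) and ARC library 44 (Nnat+/+). The nuclei were counted in separate tables, so nucleus and table cannot be told apart.

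**Figure D4:**
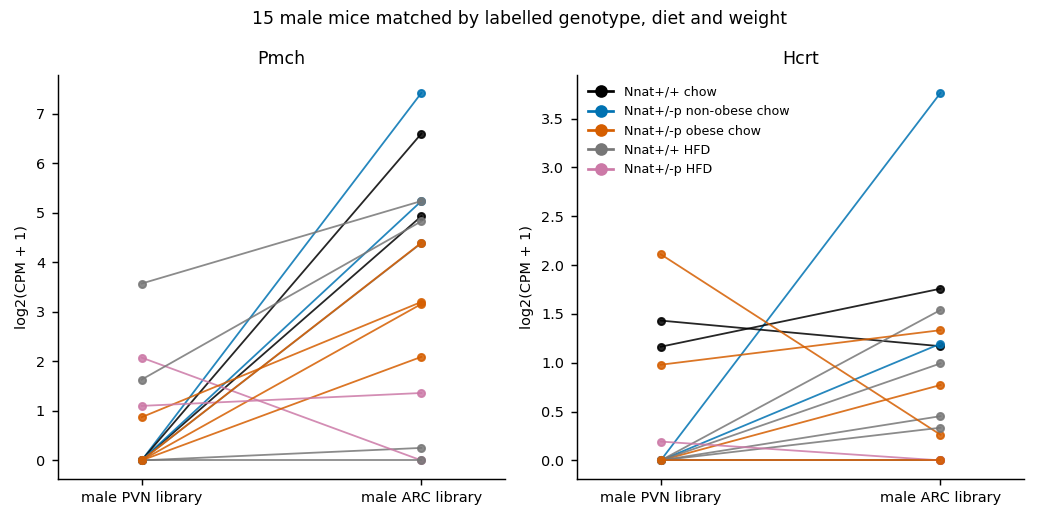
Pmch (left) and Hcrt (right) on the log2(CPM + 1) scale in the PVN and ARC libraries of 15 male mice matched by labelled genotype, diet and weight; each line is a mouse, coloured by group. For Pmch, 13 of the 15 lines are higher at the ARC end.

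Comparisons between groups were fitted across all genes with edgeR's quasi-likelihood test, and an adjusted p under 0.25 after Benjamini-Hochberg adjustment was taken as a call. Pmch passed the count filter in the ARC and in the male PVN when all 5 male groups were fitted, and Hcrt in the ARC. Neither gene passed it in the 3 female comparisons or the 3 comparisons of chow-fed males in the PVN. Background calls over all genes were 0.0129% for obese against Nnat+/+, 0.00646% for non-obese against Nnat+/+ and 0% for obese against non-obese in the female PVN, and 0.0256%, 0.0128% and 0% in the same order in the PVN of chow-fed males. In the obese against non-obese comparisons, where edgeR called 0 genes, 474 genes in the female PVN and 260 in the male PVN had an unadjusted p under 0.05, and DESeq2 called 72 and 1.

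In the ARC of chow-fed mice, Pmch was lower in obese than in non-obese Nnat+/-p libraries, by a log2 fold change of -2.82 (SE 0.53, n = 4 and 4, adjusted p = 0.245 by edgeR). It was the 1 gene called of 14658 tested in that comparison, 0.00682%. Because these genes were selected on the same libraries, the call is a description. It was lost without library 36, 39, 41, 42 or 43, and without library 43 the log2 fold change was -1.83 (adjusted p = 0.821). Against Nnat+/+ the obese libraries were lower by a log2 fold change of -2.66 (SE 0.59, n = 4 and 2, adjusted p = 0.530; 0.0205% of genes called), which did not pass. The call appeared without library 34 (-3.27, adjusted p = 0.00758) or 37 (-3.26, adjusted p = 0.109). Non-obese Nnat+/-p libraries had a log2 fold change of 0.16 against Nnat+/+ (SE 0.59, adjusted p = 1.00; 0.0136% called), which became -0.83 without library 43 and -0.45 without library 34.

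The ARC list moved the other way in these chow groups. It summed to 47.1 and 53.2 CPM in Nnat+/+, to 22.9 to 105 CPM in non-obese Nnat+/-p and to 113 to 150 CPM in obese Nnat+/-p libraries, so the obese libraries lay above all others. None of its genes was called in the 3 chow comparisons. Its part in the difference of Pmch was not tested. Fewer MCH neurons in a captured area and less Pmch RNA in each cannot be told apart in such libraries.

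Hcrt passed no comparison in the ARC. Its log2 fold change was -2.53 in obese against non-obese Nnat+/-p (SE 1.34, adjusted p = 0.999), -1.56 in obese Nnat+/-p against Nnat+/+ (SE 1.56, adjusted p = 1.00) and 0.97 in non-obese Nnat+/-p against Nnat+/+ (SE 1.61, adjusted p = 1.00). The standard errors were over 1.3 on the log2 scale.

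HFD was compared with chow in Nnat+/+ males. In the ARC, Pmch had a log2 fold change of -1.86 (SE 0.83, n = 6 and 2, adjusted p = 0.524) and Hcrt of -1.51 (SE 1.49, adjusted p = 0.866), neither called, against 1.16% of genes called. Without library 33 of the chow group the value of Pmch was -0.77, and without library 34 it was -2.44. Pmch had a log2 fold change of -0.25 in the male PVN (SE 1.34, n = 6 and 3, adjusted p = 0.974), against 1.43% called. That value was set by library 15: without it the chow group had no count of Pmch and the sign turned (log2 fold change of 8.23, adjusted p = 0.198, a fitted value against a group at 0). Between Nnat+/-p and Nnat+/+ mice on HFD, the log2 fold change of Pmch was -1.60 in the ARC (SE 0.82, n = 4 and 6, adjusted p = 0.999; 0.0127% called) and -1.77 in the PVN (SE 1.49, n = 3 and 6, adjusted p = 1.00; 0.00569% called), and that of Hcrt in the ARC was -0.93 (SE 1.42, adjusted p = 0.999). Library 53 held most of the Pmch counts of the ARC Nnat+/-p HFD group, and without it the ARC value of Pmch was -3.47. Without library 24 the PVN value was -0.44.

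**Figure D5:**
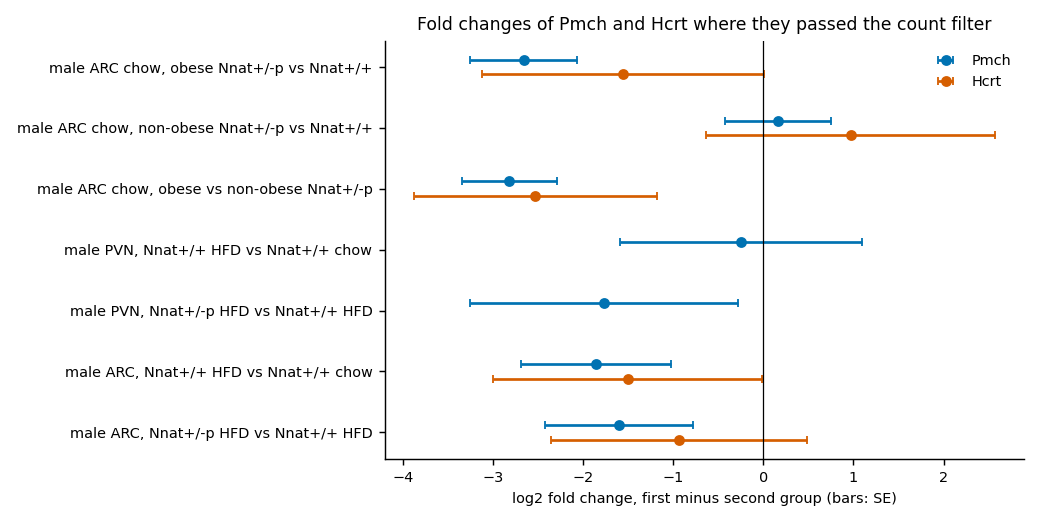
Log2 fold change of Pmch and Hcrt with its standard error in the comparisons where the gene passed the count filter, the first group named minus the second. Pmch in obese against non-obese Nnat+/-p of the ARC (-2.82 ± 0.53) is the call at an adjusted p under 0.25.

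The other listed genes were called in the 2 diet comparisons and in none of the other 11. In the ARC on HFD, 38 listed genes were tested, of which 3 rose and 3 fell, where 1.16% of all genes tested were called. Cartpt (log2 fold change of 1.91, adjusted p = 0.0143), Tbx3, a transcription factor of ARC neurons (2.30, adjusted p = 0.0169), and Pcsk1 (0.76, adjusted p = 0.225) rose, and Cnr1 (-1.39, adjusted p = 0.123), Fezf1 (-2.25, adjusted p = 0.190) and Nptx2 (-1.48, adjusted p = 0.234) fell. The median log2 fold change was 2.22 over the ARC list and -1.86 over the ventromedial list, against 0.02 over all genes tested. Without libraries 43 and 46, of which 43 entered through the shared estimate of the spread, Pcsk1 (adjusted p = 0.303) and Nptx2 were no longer called and Pomc was (1.61, adjusted p = 0.202). In the male PVN on HFD, where 1.43% of all genes tested were called, 4 of 37 fell: Nr5a1 (-4.96, adjusted p = 0.0296), Fezf1 (-2.77, adjusted p = 0.149) and Adcyap1 (-2.01, adjusted p = 0.0874), the whole ventromedial list, and Pomc (-4.18, adjusted p = 0.0109). Library 15 of the chow group held 61.7 CPM of Nr5a1 and 110 CPM of Pomc, against at most 8.10 and 12.8 CPM elsewhere in the table. Without libraries 15 and 24 none of these 4 was called and 1 other gene, Lhx9, was.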

How the data were processed

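Libraries were prepared from laser-captured PVN and ARC with a low-input stranded total RNA kit and sequenced as single-end reads. The authors deposited raw counts per Ensembl gene in 3 tables (female PVN, male PVN, male ARC), aligned with STAR 2.5.0a to GRCm38 per the submitters' processing notes. The counting tool and its strand setting are not given in the sources used here. Of 53 libraries, 3 with very low totals (replicates 5, 7 and 35) and replicate 32, whose label and table name different nuclei, were left out. Gene names came from GENCODE, where 53274 of 53379 identifiers matched a symbol; Kiss1 of the ARC list was not analysed here. Groups followed the labels, with the weight limits of the study's methods.

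Levels are CPM with TMM factors, and correlations used log2 CPM with a prior count of 2. Within each table, counts of genes kept by filterByExpr (minimum count 10) were fitted with edgeR 4.0.16 (quasi-likelihood test, Benjamini-Hochberg adjustment over all genes tested, call at an adjusted p under 0.25), with DESeq2 1.42.0 as an alternative. The fits were also run on counts simulated from their own model, with changes set only in genes above the median level. That run does not cover genes with many counts of 0, as Pmch and Hcrt had in the PVN. The 2 genes and all gene lists were chosen with earlier results of these data known. The named genes were the 2 members, the listed genes, Nnat, and the 5 genes with the highest r with each member in each table. 1 of these is not reported here. Few libraries per group, and low counts of Hcrt, limit the precision.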

Additional observations from a re-analysis of the deposited data

Results flagged for a closer look

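Within groups of 4 to 10 libraries, 4 values in 13 groups with any count stood far from the nearest other library of their group (Dixon's criterion). Chance meets it in about 1 group in 20 for normally distributed values. That rate does not hold here, where in 3 of the 4 cases every other library of the group was at 0. Hcrt was at 12.58 CPM in non-obese Nnat+/-p library 43 of the ARC, where the next library held 1.29 CPM, and at 10.45 CPM in Nnat+/+ HFD library 24 of the male PVN, where the other 5 held none. Pmch was at 3.096 CPM (17 counts) in Nnat+/+ library 2 of the female PVN and at 0.8298 CPM (3 counts) in obese library 21 of the male PVN, and the other libraries of both groups held none. Libraries 24 and 43 were also the highest of their tables in Pmch, in the dorsomedial list and in the list of other lateral hypothalamic genes.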

How the results depend on the processing

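No paired analysis was run, because no label names the mouse and the replicate numbers, from 1 to 53, number libraries. The 15 matches across nuclei rest on labelled genotype, diet and weight and join separately normalized tables. The lower Pmch of obese against non-obese Nnat+/-p in the ARC kept its direction under every alternative run and lost the call at a threshold of 0.05 (-2.82), with DESeq2 (-2.84, adjusted p = 0.791), with RLE size factors (-2.83, adjusted p = 0.289), with all labelled libraries (-2.83, adjusted p = 1.00) and with only the 2 groups fitted (-2.83, adjusted p = 0.479). Leaving out 1 library at a time gave -3.42 to -1.83. Obese against Nnat+/+ gained a call when every gene with a total count over 1 was kept (-2.66, with the SE down from 0.59 to 0.27) and with only the 2 groups fitted (-2.67, adjusted p = 0.00563), and ran from -3.27 to -1.57 without 1 library. Non-obese against Nnat+/+ ran from -0.83 to 1.25. Keeping every gene also gave calls of Pmch in the ARC for HFD against chow (-1.84) and for Nnat+/-p against Nnat+/+ on HFD (-1.60); the cause was not tested. In the male PVN, HFD against chow ran from -1.57 to 8.23 without 1 library (0.01 to 0.02 without library 25, 26 or 28) and was 6.90 without libraries 15 and 24, where the chow group had no count. The r of Pmch with Hcrt in the male PVN was -0.11 without libraries 24 and 15 and, chosen after seeing the data, -0.10 without library 24; in the 12 other settings over the 3 tables r moved by less than its standard error, and in the female PVN without libraries 2 and 9 no count of Pmch was left to give a value. Those 12 settings include the ARC falls of r from 0.30 to 0.08 without library 43 and to 0.07 as deviations from the group means. With few libraries the standard error was wide. No value of Hcrt changed its side of the threshold in the ARC.

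Counts of called genes also depended on the setting. Over all alternatives run, they went, in the order given for the report's comparisons of obese and non-obese with Nnat+/+ and with each other, from 1 to 936, 1 to 235 and 0 to 622 in the female PVN (2, 1 and 0 as reported), from 2 to 43, 1 to 18 and 0 to 6 in the PVN of chow-fed males (4, 2 and 0) and from 2 to 25, 1 to 10 and 0 to 14 in the ARC (3, 2 and 1). For HFD against chow they ran from 26 to 1134 in the PVN (251) and from 3 to 678 in the ARC (182), and for Nnat+/-p on HFD from 1 to 8 (1) and from 1 to 64 (2). The highest counts came from keeping every gene, from all labelled libraries or, in the ARC on HFD, from fitting the 2 groups alone. Leaving out libraries 15 and 24, or 43 and 46, for the listed genes was chosen after seeing the data.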
